A study of Mus musculus with 12 samples.

Results

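Chromatin accessibility was examined at 49 genes of DNA replication in sorted splenic germinal center B cells of mice with and without Pbrm1. The deposited table holds 68689 accessible regions (peaks) of equal length on mm10, each with a count in 12 libraries. A peak was taken as a member when the nearest protein-coding gene span to its midpoint, within 50 kb, was that of a replication gene. This gave 169 peaks at 47 of the 49 genes. Of these, 69 were gene-end peaks, centred within 1 kb of an end of any protein-coding gene, the member's own or a neighbour's. The remaining 100 were other peaks, 71 of them elsewhere inside a gene and 29 between genes. Rpa3 and Cdc45 had no assigned peak. The libraries came from 4 groups of 3: Pbrm1+/+ (WT) and Pbrm1-/- (HOMO), each as the populations labelled CB and CC. All animals were C57BL/6, 8 to 10 weeks old, and the tissue was spleen. Pbrm1 encodes a subunit found in the PBAF form of the SWI/SNF chromatin remodelling complex. The labels do not spell out CB and CC, and do not say how the Pbrm1 allele was made or in which cells it was lost, and the prefix Pbrm1AID on the columns of counts is not explained. They do not say that the 3 libraries of a group came from separate mice, so p-values measure the spread between libraries.

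Before a cell copies its DNA, the origin recognition complex, Cdc6 and Cdt1 load rings of Mcm2 to Mcm7 onto origins, a step called licensing. Cdc45 and the GINS proteins turn each ring into a moving helicase, primase and the polymerases copy both strands, and the clamp Pcna, set in place by replication factor C, holds the polymerases on DNA. Germinal center B cells divide rapidly, and centroblasts are the germinal center cells that divide the most. E2F factors bind the promoters of many of these genes and drive their transcription before and during S phase.

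The promoters of these genes carried the short E2F cores searched for (TTCCCGC along with TTGGCGC, then TTCGCGC and finally TTGCCGC, on either strand, with overlaps allowed) more often than promoters at large. RefSeq promoter windows (GRCm38.p6, from 250 bases before to 50 after a listed start) were matched for 41 of the 49 genes, with 51 windows. A core lay in 30 of 51 windows (58.8%), against 9.57% of all 32851 windows and 18.6% of the 10141 protein-coding windows that overlap a peak. Mcm4, Gmnn, Gins1, Gins2, Gins4, Rfc2, Prim2 and Pole had no entry in the promoter table. Shown first are the windows of 4 genes of the helicase ring, because their open starts hold several cores, and then those of Rpa2 and Tyms, because accessibility just downstream of these starts differed between genotypes. They lie at chr1:20820263-20820562 (Mcm3, minus strand), chr8:75109259-75109558 (Mcm5, plus), chr1:128359656-128359955 (Mcm6, minus), chr5:138171834-138172133 (Mcm7, minus), chr4:132768110-132768409 (Rpa2, plus) and chr5:30073576-30073875 (Tyms, minus). Each is read in the direction of its gene, and capitals mark the E2F cores.
Mcm3: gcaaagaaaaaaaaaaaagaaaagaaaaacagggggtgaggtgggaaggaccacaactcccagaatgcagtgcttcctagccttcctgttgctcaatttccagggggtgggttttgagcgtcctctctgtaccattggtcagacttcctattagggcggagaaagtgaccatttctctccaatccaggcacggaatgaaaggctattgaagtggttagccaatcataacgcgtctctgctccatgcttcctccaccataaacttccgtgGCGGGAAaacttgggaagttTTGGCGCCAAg
Mcm5: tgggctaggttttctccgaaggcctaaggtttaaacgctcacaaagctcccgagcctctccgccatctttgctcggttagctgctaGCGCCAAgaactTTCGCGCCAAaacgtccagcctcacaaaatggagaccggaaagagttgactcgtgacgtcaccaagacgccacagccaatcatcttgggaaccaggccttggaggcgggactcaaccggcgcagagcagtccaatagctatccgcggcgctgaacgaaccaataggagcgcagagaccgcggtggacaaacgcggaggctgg
Mcm6: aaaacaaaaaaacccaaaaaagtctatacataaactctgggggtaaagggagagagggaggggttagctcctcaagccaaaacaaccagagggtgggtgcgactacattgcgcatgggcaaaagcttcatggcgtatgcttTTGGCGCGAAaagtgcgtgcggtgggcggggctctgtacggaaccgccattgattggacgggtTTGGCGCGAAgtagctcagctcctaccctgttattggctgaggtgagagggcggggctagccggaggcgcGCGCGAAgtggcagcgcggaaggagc
Mcm7: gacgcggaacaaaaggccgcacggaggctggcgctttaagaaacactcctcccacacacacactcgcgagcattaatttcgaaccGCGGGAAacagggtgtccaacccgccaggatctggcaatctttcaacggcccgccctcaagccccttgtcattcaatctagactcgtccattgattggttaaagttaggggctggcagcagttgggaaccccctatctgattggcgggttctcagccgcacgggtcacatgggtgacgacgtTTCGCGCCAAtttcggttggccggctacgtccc
Rpa2: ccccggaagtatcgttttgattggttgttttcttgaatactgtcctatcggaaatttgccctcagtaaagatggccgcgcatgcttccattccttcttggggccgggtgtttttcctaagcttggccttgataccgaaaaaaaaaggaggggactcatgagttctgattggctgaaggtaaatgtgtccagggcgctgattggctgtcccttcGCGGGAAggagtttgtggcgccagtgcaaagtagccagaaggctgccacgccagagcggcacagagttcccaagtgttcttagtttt
Tyms: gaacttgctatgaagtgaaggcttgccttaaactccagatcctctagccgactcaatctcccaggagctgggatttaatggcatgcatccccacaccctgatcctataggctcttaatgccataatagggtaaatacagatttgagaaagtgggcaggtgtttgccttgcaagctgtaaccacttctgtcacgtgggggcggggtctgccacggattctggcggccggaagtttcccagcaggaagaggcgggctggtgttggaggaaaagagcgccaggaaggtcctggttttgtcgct
The Mcm6 window held 5 cores, 4 of them in a pair of identical blocks where a core on each strand overlaps. Those of Mcm3, Mcm5 and Mcm7 held 3 cores each, Rpa2 held 1, and no core was found in the Tyms window. Of the other ring genes, the open Mcm2 window held 0 cores. The NF-Y box (CCAAT) lay in 56.9% of member windows against 38.6% of protein-coding windows that overlap a peak, and the Ets core (CCGGAA) in 45.1% against 30.5%. The GC box (GGGCGG) was at 72.5% against 69.7%, and the CHR element (TTTGAA) at 11.8% against 10.8%. These are counts of letters and not of bound sites.

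Library totals ran from 6431354 counts (HOMO CC 1) to 45590454 (HOMO CB 3), and the members' median gene-end peak held 206 to 1643 counts. Values are given as CPM, which are counts scaled to library size with TMM factors. The share of all counts lying in gene-end peaks was 44.0% to 47.6% in WT and 42.6% to 44.8% in HOMO libraries. In CC it was 44.0% to 46.0% in WT and 42.6% to 43.6% in HOMO, so that gene-end levels and genotype moved together there. In CB the genotypes overlapped, with HOMO CB 1 at 44.8% above WT CB 1 (44.7%) and WT CB 2 (44.6%), and WT CB 3 was highest at 47.6%. The main Pbrm1 gene-end peak was at 26.5 to 39.3 CPM in WT CB and 26.5 to 36.0 CPM in HOMO CB, which does not test the allele. Gene-end peaks were present at 6 of 7 germinal center B cell markers and 7 of 7 B cell markers. The germinal center markers summed to 174 to 179 CPM in WT CB and 180 to 182 in HOMO CB. In CC they summed to 158 to 163 CPM in WT and 172 to 176 in HOMO. The B cell markers summed to 302 to 313 CPM in WT CB and 328 to 332 in HOMO CB, and to 280 to 287 in WT CC and 296 to 338 CPM in HOMO CC. Both sums were thus higher in HOMO without overlap. Of T cell markers, Cd3d alone had one (18.3 to 24.3 CPM), and Cd3e, Cd3g, Cd4, Cd8a, Cd28 and Lck had none. Of myeloid markers, Cd14 alone had one, at 2.95 to 5.12 CPM in WT and 0.976 to 1.96 CPM in HOMO libraries. The natural killer marker Prf1, the one of 5 with such a peak, was at 1.15 to 2.54 CPM in WT CB, 0.83 to 1.31 in HOMO CB, 2.39 to 3.67 in WT CC and 1.03 to 2.37 CPM in HOMO CC. The 5 of 6 plasma cell markers with such a peak (Sdc1, Prdm1, Xbp1, Irf4 and Jchain) summed to 204 to 207 CPM in WT CB and 184 to 196 in HOMO CB, and to 180 to 187 in WT CC and 173 to 179 CPM in HOMO CC. The part of these differences in the results was not tested, and a change in the share of a cell type cannot be told apart from a change in accessibility within it.

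The replication genes with a gene-end peak were open in every library. The main peak of a gene, its gene-end peak of highest mean CPM, could be taken for 41 genes. These main peaks had a median of 43.7 CPM, against 30.0 CPM over the main peaks of all 10741 genes, and 33 of 41 were above that value. They ran from 7.92 CPM at Tyms, which makes thymidylate, to 95.6 CPM at Gins2, a GINS subunit. Their coefficient of variation over the 12 libraries was 4.87% to 34.0%, with a median of 9.73%, so that genes differed among themselves far more than libraries did.

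In the helicase ring the order was Mcm4 (67.2 CPM), Mcm7 (60.1), Mcm6 (56.6), Mcm2 (49.7), Mcm5 (43.7) and Mcm3 (41.9 CPM). At Mcm7 the 12 libraries lay between 54.4 and 66.1 CPM. At Mcm3, the lowest, they lay between 34.5 and 51.7 CPM, without overlap with Mcm7. Neighbours in the order did overlap. Among licensing genes Cdt1 was highest at 61.4 CPM and the origin recognition subunit Orc5 lowest at 35.4 CPM. Pcna was at 54.0 CPM, above the clamp loader genes with a main peak, which ran from 28.0 CPM (Rfc2) to 43.4 CPM (Rfc5). Rfc1 had no main peak. Its peak 221 bp from the listed start, classed as inside the gene, was at 27.7 CPM. Among polymerase genes Pold1, the catalytic subunit of polymerase delta, was highest at 67.5 CPM, and Prim1, the catalytic primase subunit, lowest at 13.3 CPM. The single-strand binding genes Rpa1 and Rpa2 were at 68.0 and 42.2 CPM. Fen1, whose nuclease trims Okazaki fragments, was at 32.1 CPM. Rrm1, the large subunit of ribonucleotide reductase, was at 35.6 CPM, and Tk1, thymidine kinase, at 14.3 CPM. The main Tk1 peak lay 1039 bp from its second gene-end peak (14.2 CPM), which was 179 bp downstream of the listed start. Uhrf1, which helps to copy DNA methylation, led the chromatin copying genes at 65.4 CPM, and Chaf1a, a subunit of the histone chaperone CAF-1, was lowest at 34.5 CPM. E2f1 and E2f2 were at 69.0 and 31.9 CPM.

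**Figure D1:**
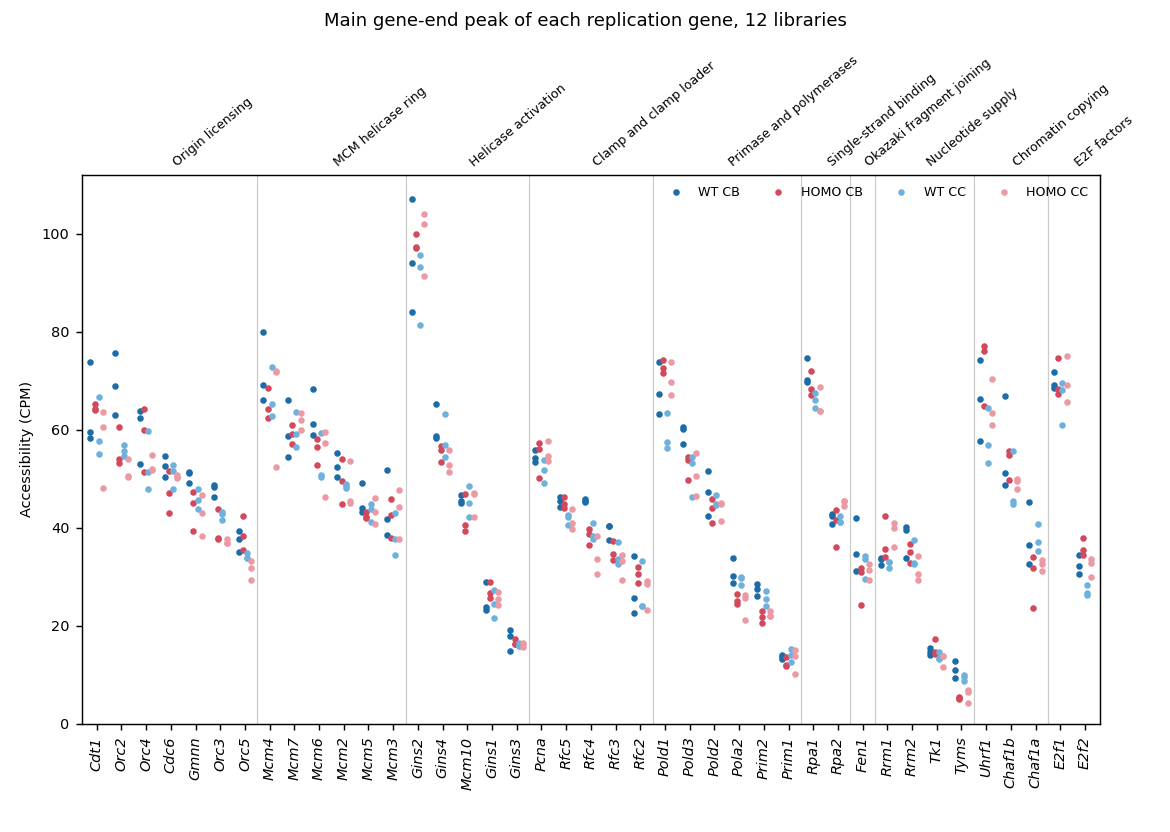
Accessibility in CPM of the main gene-end peak of 41 replication genes, grouped by role, with 1 point for each of 12 libraries coloured by group. Gins2 is highest at a mean of 95.6 CPM and Tyms lowest at 7.92 CPM, and the HOMO points all lie below the WT points in both CB and CC at 5 genes, Tyms, Orc2, Orc3, Prim2 and Pola2.

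For 8 genes no gene-end peak was assigned (Orc1, Orc6, Cdc45, Rfc1, Pole, Pole2, Rpa3 and Lig1). For some of them the start is shared with a neighbour to which the peak was assigned. The peak at the Orc1 start (41.4 CPM) belongs to Prpf38a by the rule, that at Orc6 (51.2 CPM) to Vps35, that at Lig1 (40.6 CPM) to Zswim9, that at Pole2 (22.8 CPM) to Klhdc1 and that at Rpa3 (77.3 CPM) to Umad1. None of these passed the genotype test, for example Orc1 in CB (log2 fold change -0.28, adjusted p = 0.187 by edgeR's quasi-likelihood test). A second start-side peak at Orc4, assigned to Mbd5, was at 16.7 to 18.6 CPM in WT CB and 11.9 to 14.3 CPM in HOMO CB, with a log2 fold change of -0.46 that did not pass (adjusted p = 0.084). The peak nearest to the Cdc45 start lay 182052 bp away. These peaks were added after the data had been seen and are not counted among the 169. Conversely, some main peaks of members lay nearest to the end of a neighbouring gene. Among them were those of Mcm7 (nearest end Ap4m1), Orc3 (Rars2) and Orc4 (Mbd5).

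Between genotypes, in the main fit with 1 mean per group, the main peaks of 40 of 41 replication genes did not pass in either population. The calls of that fit lay at smaller peaks and at Tyms. By edgeR's quasi-likelihood test with Benjamini-Hochberg adjustment over all 68689 peaks, 7 of 169 member peaks (4.14%) passed in CB, 2 higher and 5 lower in HOMO, against 4.63% of all peaks. In CC 6 of 169 (3.55%) passed, 2 higher and 4 lower, against 2.75% of all peaks. Both shares are near the background, so by counts of calls the replication genes as a set were not marked out. The medians of their peaks away from gene ends, given below, did differ from those of all such peaks. Of the 41 main peaks, 1 passed in each population, that of Tyms, which was lower, against 6.56% of all main peaks called lower in CB and 3.54% in CC. The CB count depended on the fit. It was 7 lower with a replicate block across genotypes, 8 with the library total as covariate, 4 with limma voom and 2 with DESeq2. Over all peaks, in both directions, these fits called 9097, 8125, 6401 and 4211 in CB, against 3178 in the main fit. The share of all main peaks called lower was not counted in them, so these member counts have no like background. In CC each of these fits called 1 main peak lower. The replicate block and the covariate each also called 1 higher there. With TMM factors over gene-end peaks alone, 0 were lower and 1 higher in CC. Groups of 3 libraries often stood apart without a call. HOMO and WT did not overlap at 13 of 41 main peaks in CB (31.7%), 12 of them lower in HOMO, against 26% of all main peaks, and at 11 in CC (26.8%), 7 of them lower, against 23%. At Tyms, Orc2, Orc3, Prim2 and Pola2 every HOMO library was below every WT library in both populations (12.2%, against 10.8% of all main peaks), and at Rrm1 every one was above. The count of called member peaks in CB was 2 without HOMO CB 2, 3 without WT CB 1, and 4 without HOMO CB 3 or without WT CB 3. That in CC was 0 without HOMO CC 2, HOMO CC 3 or WT CC 1, 1 without WT CC 2 or WT CC 3, and 3 without HOMO CB 2.

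The helicase ring shows the size of the spread. At the main Mcm6 peak (chr1:128359454-128359954, on the start site) the WT CB libraries were at 61.1, 58.9 and 68.2 CPM and the HOMO CB libraries at 52.7, 56.4 and 58.0 CPM. In CC they were at 50.7, 50.4 and 59.4 CPM in WT and 46.3, 57.3 and 59.5 CPM in HOMO. HOMO CB lay below WT CB without overlap, while in CC the groups overlapped. For Mcm6 the log2 fold change was -0.17 (SE 0.10, adjusted p = 0.37) in CB and 0.03 (SE 0.10, adjusted p = 0.916) in CC. Mcm2, Mcm3, Mcm4, Mcm5 and Mcm7 had log2 fold changes of -0.14 to -0.02 in CB and -0.02 to 0.18 in CC at their main peaks, and none passed.

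Pcna and E2f1 were as near to level. The main Pcna peak (chr2:132252981-132253481) was at 54.2, 55.8 and 53.4 CPM in WT CB and 50.2, 57.3 and 56.0 CPM in HOMO CB, with a log2 fold change of 0.01 (SE 0.09, adjusted p = 0.97). The CC libraries were at 51.8, 49.1 and 53.8 CPM in WT and 53.7, 57.7 and 54.6 CPM in HOMO, with a log2 fold change of 0.10 (SE 0.09, adjusted p = 0.588). The genotypes overlapped in both populations. The main E2f1 peak (chr2:154569751-154570251) was at 68.4 to 71.8 CPM in WT CB, 67.2 to 74.7 in HOMO CB, 60.9 to 69.5 in WT CC and 65.7 to 75.0 CPM in HOMO CC. Its log2 fold changes were 0.01 in CB and 0.08 in CC (SE 0.09 for both).

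Other roles gave main-peak log2 fold changes of both signs, none of which passed in the main fit except at Tyms. The origin licensing genes ran from -0.31 (Orc2, adjusted p = 0.0513) to 0.05 (Orc5) in CB and from -0.19 (Orc3) to -0.01 in CC. At Orc2 the WT CB libraries were at 69.0, 75.7 and 62.9 CPM and the HOMO CB libraries at 60.6, 53.2 and 54.1 CPM, without overlap. Among helicase activators the values ran from -0.14 (Gins4) to 0.09 (Gins1) in CB and from -0.13 (Gins4) to 0.14 (Gins2) in CC. Among primase and polymerase genes they ran from -0.33 (Prim2, adjusted p = 0.0784) to 0.10 (Pold1) in CB and from -0.25 (Pola2) to 0.25 (Pold1, adjusted p = 0.116) in CC. In the clamp and clamp loader group Rfc4 was lowest, at -0.24 in CB and -0.17 in CC. Chaf1a was at -0.33 (SE 0.13, adjusted p = 0.148) in CB and -0.22 in CC, and Uhrf1 at 0.13 and 0.16. E2f2 was at 0.15 and 0.24. Over the 69 gene-end peaks the median log2 fold change was -0.08 in CB and -0.01 in CC, against -0.11 and -0.07 over all gene-end peaks. With TMM factors computed over gene-end peaks alone, the members' medians turned to 0.04 and 0.08, because that scaling moves the median of all peaks in CB from 0.01 to 0.14, and in CC from 0.02 to 0.11.

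The gene-end peaks that fell in HOMO were the only one of Tyms and 4 smaller peaks just inside Rpa2, Gins2, Mcm4 and Rfc5. In CB 5 of 69 gene-end peaks (7.25%) passed, all lower, against 9.17% of all gene-end peaks called lower, and in CC 4 of 69 (5.8%), all lower, against 5.58%. These shares are near the background or below it, so such losses were as common at gene ends in general. With TMM factors over gene-end peaks alone the directions stayed, but all 4 CC calls were lost, at Tyms (adjusted p = 0.0928), Rpa2 (0.0719), Mcm4 (0.0682) and Gins2 (0.0559). In CB that scaling lost the calls at Rfc5 (adjusted p = 0.0834) and Mcm4 (0.0744), and the split of called member peaks turned to 5 higher and 3 lower in CB and to 3 higher and 0 lower in CC. Except at Tyms, each lay beside a larger main peak of the same gene that did not pass.

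Tyms carried the largest called fall in CB. Its only gene-end peak (chr5:30073082-30073582, midpoint 293 bp downstream of the start shown above) was at 10.9, 12.8 and 9.35 CPM in WT CB and 4.98, 5.32 and 5.54 CPM in HOMO CB. In CC it was at 8.77, 9.99 and 9.62 CPM in WT and 6.95, 6.44 and 4.33 CPM in HOMO. Every HOMO library was below every WT library in both populations. For Tyms the log2 fold change was -1.03 (SE 0.19, adjusted p = 0.00531) in CB, a call that held with each of the 12 libraries left out (highest adjusted p = 0.05, rounded). In CC it was -0.73 (SE 0.19, adjusted p = 0.0444). That call was lost without HOMO CC 3 (adjusted p = 0.252), HOMO CC 2 (0.147), WT CC 2 (0.122), WT CC 1 (0.0951), WT CC 3 (0.0947), WT CB 1 (0.069), HOMO CB 2 (0.065), HOMO CB 3 (0.0588) or WT CB 2 (0.0505).

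Rpa2 encodes the middle subunit of the protein that coats single-stranded DNA. Its peak inside the gene (chr4:132768426-132768926, 316 bp downstream of the start) was at 23.7, 24.4 and 26.2 CPM in WT CB and 16.6, 15.1 and 14.5 CPM in HOMO CB. The CC libraries were at 22.0, 20.4 and 24.0 CPM in WT and 15.1, 14.7 and 17.3 CPM in HOMO. The genotypes did not overlap in either population. For Rpa2 the log2 fold change was -0.70 (SE 0.12, adjusted p = 0.00395) in CB, held with each library left out, and -0.49 (SE 0.12, adjusted p = 0.0342) in CC. The CC call was lost without HOMO CC 2 (adjusted p = 0.228), WT CC 3 (0.122), WT CC 1 (0.1), HOMO CC 3 (0.0737), WT CC 2 (0.059), WT CB 1 (0.051) or HOMO CB 2 (0.0504). The main Rpa2 peak, 565 bp away on the start side, had log2 fold changes of -0.05 and 0.12.

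Gins2 paired the most open main peak with a small neighbour that fell. The small peak (chr8:120588401-120588901, inside the gene, 541 bp from the main peak) was at 9.90, 9.85 and 10.9 CPM in WT CB and 5.24, 5.56 and 5.45 CPM in HOMO CB. In CC it was at 9.55, 6.98 and 9.98 CPM in WT and 6.06, 5.18 and 4.76 CPM in HOMO. HOMO libraries were lower without overlap in both. For this peak the log2 fold change was -0.91 (SE 0.18, adjusted p = 0.00713) in CB, lost without HOMO CB 2 (0.0555), and -0.77 (SE 0.18, adjusted p = 0.0268) in CC. The CC call was lost without HOMO CC 2 (adjusted p = 0.167), HOMO CC 3 (0.145), WT CC 1 (0.104) or WT CC 3 (0.0997). The main Gins2 peak was at 84.0, 93.9 and 107 CPM in WT CB and 97.2, 97.1 and 100 CPM in HOMO CB, with log2 fold changes of 0.05 in CB and 0.14 in CC.

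Mcm4 and Rfc5 followed the same layout. The small Mcm4 peak (chr16:15636487-15636987, inside the gene and 707 bp from Prkdc) was at 9.90, 11.1 and 11.0 CPM in WT CB and 6.29, 6.62 and 7.20 CPM in HOMO CB, and at 11.4, 11.9 and 9.78 CPM in WT CC and 6.95, 6.44 and 7.48 CPM in HOMO CC. No HOMO library reached a WT library. The log2 fold change was -0.66 (SE 0.16) in both populations, with adjusted p = 0.022 in CB and 0.0295 in CC. The CB call was lost without HOMO CB 2 (adjusted p = 0.12), HOMO CB 3 (0.0681), WT CB 3 (0.0618), WT CB 1 (0.0613) or WT CB 2 (0.0557), and the CC call without HOMO CC 2 (0.21), WT CC 1 (0.105), WT CC 2 (0.105) or HOMO CC 3 (0.0891). The main Mcm4 peak, 642 bp away, had log2 fold changes of -0.14 and -0.02. At Rfc5, a clamp loader subunit, the peak 895 bp downstream of the start (chr5:117387878-117388378) was at 12.6, 9.62 and 14.6 CPM in WT CB and 6.94, 7.35 and 8.83 CPM in HOMO CB, without overlap. Its log2 fold change was -0.68 (SE 0.18, adjusted p = 0.0393) in CB and -0.31 (SE 0.19, adjusted p = 0.414) in CC. The Rfc5 call was lost without HOMO CB 2 (adjusted p = 0.192), WT CB 3 (0.154), WT CB 1 (0.125), HOMO CB 1 (0.0741), HOMO CB 3 (0.0717), HOMO CC 2 (0.0565) or WT CC 1 (0.0543).

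**Figure D2:**
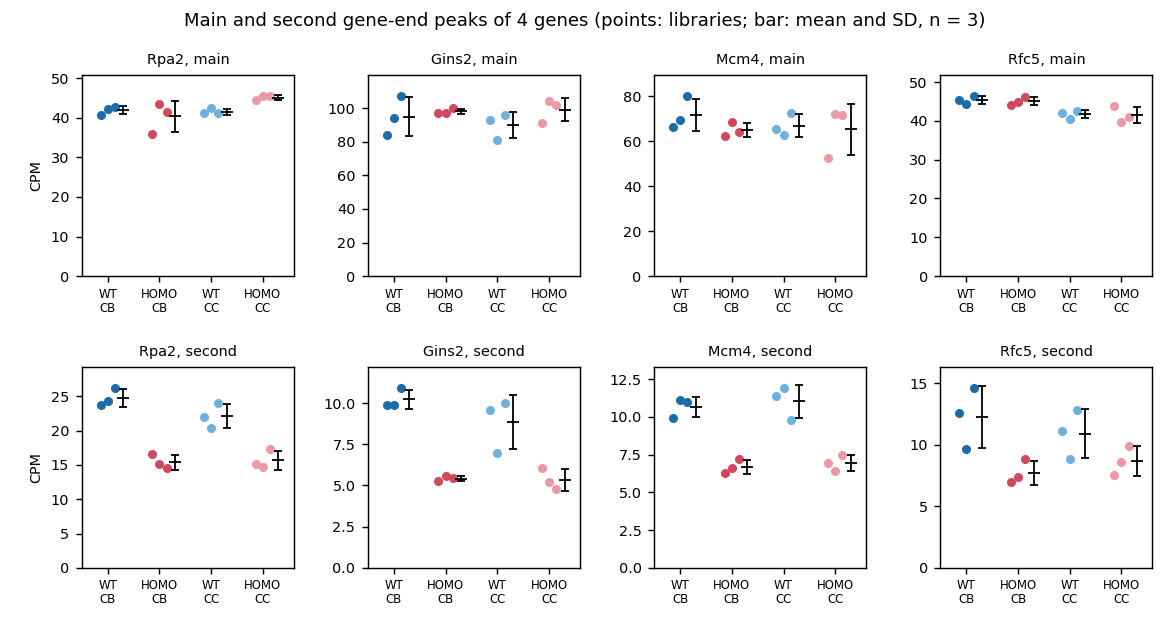
CPM in each library (points, 3 per group) with mean and SD, for the main gene-end peak (upper row) and the smaller gene-end peak beside it (lower row) of Rpa2, Gins2, Mcm4 and Rfc5. In the lower row the HOMO points lie below the WT points in CB for all 4 genes, while in the upper row the genotypes overlap except for the main Rpa2 peak in CC, where HOMO is the higher.

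The position of member peaks relative to the start was then tabulated, a split chosen after the data had been seen. Genes without an entry in the promoter table, Gins2 and Mcm4 among them, could not be placed, so their falls are not in these counts. Of 13 member peaks with the midpoint more than 250 and up to 1000 bp downstream of a listed start, 3 (23.1%) were called lower in CB, and their median log2 fold change was -0.29. Over all genes 3834 such peaks had a median of -0.30, and 19.7% were called lower. Of the 34 member peaks within 250 bp of a start none was called lower, with a median of -0.08, against 6.95% and a median of -0.09 over all genes. Of the 4 member peaks upstream none was called either. In CC the downstream members had a median of -0.25 with 2 called lower (15.4%), against -0.27 and 13.5% over all genes. The downstream peaks of the replication genes thus showed the values of genes at large. A pair of downstream peaks without a call had low values in both populations, at Mcm10 (-0.73 and -0.76) and at Mcm3 (-0.46 and -0.42). Not all were low, since those of E2f2 ran from 0.09 to 0.24.

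**Figure D3:**
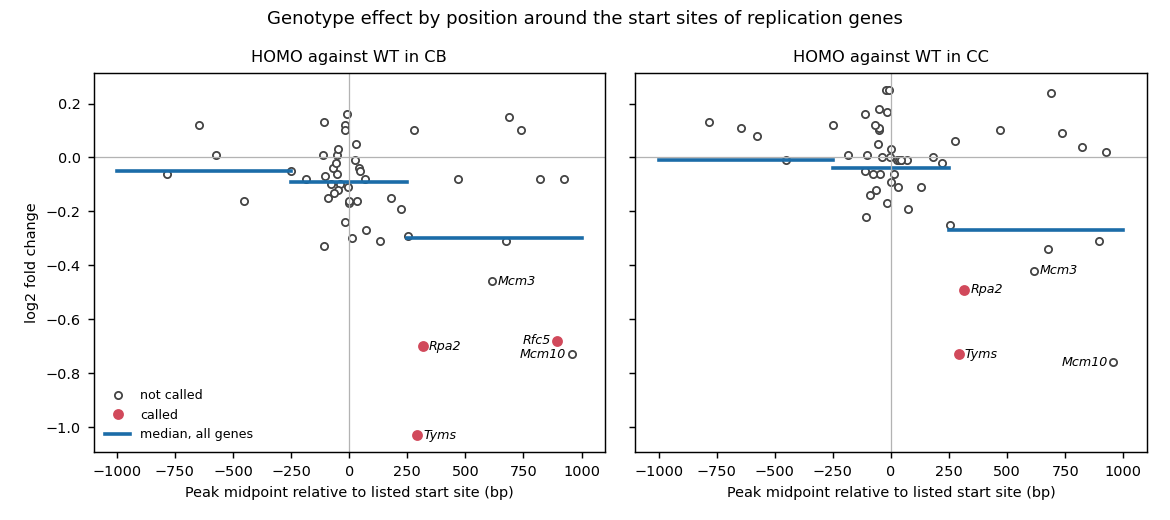
Genotype effect (log2 fold change, HOMO over WT; left CB, right CC) of member peaks within 1000 bp of a listed start, against the distance of the midpoint from the start in bp (positive is downstream). Filled points passed the test, blue lines are medians over all genes (-0.30 downstream in CB), and the named points below -0.4 all lie downstream. Genes without a listed start, Gins2 and Mcm4 among them, are not shown.

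The 100 member peaks away from gene ends leaned the other way. In CB 74 of 100 were above 0 with a median log2 fold change of 0.17, against a median of 0.05 over all 52588 such peaks, and in CC 83 of 100 with a median of 0.15, against 0.06. These medians stayed between 0.14 and 0.30 in CB and between 0.13 and 0.23 in CC over all scalings, tests and left-out libraries. By library, the members' median deviation from the mean of all libraries was -0.106 to -0.029 in WT CB and 0.08 to 0.123 in HOMO CB. In CC it was -0.086 to 0.014 in WT and 0.066 to 0.098 in HOMO. HOMO and WT libraries did not overlap in either population. Over all such peaks the genotypes did not overlap in CC either (-0.027 to 0.026 in WT, 0.029 to 0.065 in HOMO). In CB they overlapped (-0.067 to 0.001 in WT, -0.004 to 0.024 in HOMO). Some genes gave many of the 100 member peaks, with 9 inside Rfc1, 8 inside Prim2 and 6 inside E2f2. Few single peaks passed, with 2 of 100 called in CB, both higher (0.939% of all other peaks were called higher), and 2 of 100 in CC, both higher (0.694%). No p is given for these medians.

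**Figure D4:**
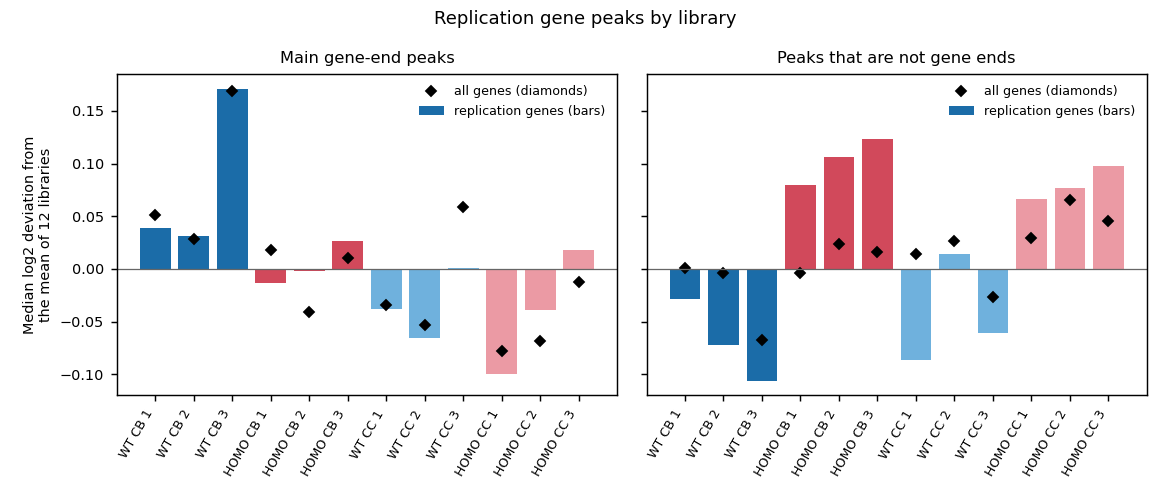
Median log2 deviation of each library from the mean of the 12 libraries, for the main gene-end peaks (left) and the peaks that are not gene ends (right) of replication genes (bars, coloured by group) and of all genes (diamonds). In the right panel the HOMO bars lie at 0.066 or above and the WT bars at 0.014 or below.

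The internal peaks that rose in HOMO belong to Rfc1, E2f2 and Rpa1. Rfc1 is the large subunit of the clamp loader. Its peak at chr5:65325768-65326268, 12599 bp from the gene end, was at 25.2, 25.9 and 22.5 CPM in WT CB and 35.1, 34.5 and 33.3 CPM in HOMO CB. In CC it was at 25.5, 24.3 and 25.1 CPM in WT and 28.5, 36.5 and 35.8 CPM in HOMO. HOMO was above WT without overlap in both. The log2 fold change was 0.49 (SE 0.11, adjusted p = 0.0146) in CB and 0.45 (SE 0.11, adjusted p = 0.0307) in CC. The CB call was lost without HOMO CB 2 (adjusted p = 0.0881), WT CB 1 (0.0578) or WT CB 3 (0.054), and the CC call without HOMO CC 2 (0.226), HOMO CC 3 (0.143), WT CC 2 (0.1), WT CC 1 (0.093) or WT CC 3 (0.0705).

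At E2f2 the peak at chr4:136177102-136177602, inside the gene, was at 24.5, 23.9 and 20.9 CPM in WT CC and 28.2, 31.8 and 31.6 CPM in HOMO CC, without overlap. Its log2 fold change was 0.42 (SE 0.11, adjusted p = 0.0384) in CC and 0.26 (SE 0.11, adjusted p = 0.169) in CB. The call was lost without HOMO CC 2 (adjusted p = 0.222), HOMO CC 3 (0.147), WT CC 3 (0.14), WT CC 1 (0.0833), WT CC 2 (0.0823) or HOMO CB 2 (0.057). At Rpa1, the large subunit of the single-strand binding protein, the peak at chr11:75336610-75337110 was at 30.3, 27.0 and 26.0 CPM in WT CB and 41.3, 35 and 35.1 CPM in HOMO CB, again without overlap. Its log2 fold change was 0.41 (SE 0.11, adjusted p = 0.0408) in CB and 0.14 (SE 0.11, adjusted p = 0.564) in CC. The Rpa1 call was lost with any of 9 of the 12 libraries left out, up to adjusted p = 0.119 without WT CB 3. The others were HOMO CB 2 (0.115), HOMO CB 1 (0.105), WT CB 2 (0.0886), HOMO CB 3 (0.0837), WT CB 1 (0.0686), HOMO CC 2 (0.0585), WT CC 1 (0.056) and WT CC 2 (0.0544).

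In no member peak did the effect of genotype differ between CC and CB by edgeR's quasi-likelihood test, nor in any of the 68689 peaks (0%). At an unadjusted p under 0.05 there were 0 member peaks and 810 over all 68689 peaks, fewer than that threshold gives with no effect. This fit left out the pairing of CB with CC by replicate number, as did DESeq2 and limma voom, which also called 0. With the replicate number as a block within genotype, 3767 of all peaks were at an unadjusted p under 0.05 and 0 were called. The unpaired counts therefore cannot show that the effects were equal. The peaks called in CB alone, such as those of Rfc5 and Rpa1, are therefore not shown to differ from CC. Of the 41 main peaks 35 had a difference above 0 and 14.6% were below, against 34.3% below 0 over the main peaks of all genes. The medians were 0.08 and 0.05.

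Between populations the larger differences lay inside genes. In WT 14 of 169 member peaks (8.28%) differed between CC and CB, 8 higher and 6 lower in CC, against 5.43% of all peaks. In HOMO 9 of 169 (5.33%) differed, 6 higher and 3 lower, against 7.22%. In both genotypes 7 of 169 passed (4.14%), against 3.69% of all peaks. With TMM factors over gene-end peaks alone the WT calls at Orc2 (adjusted p = 0.172), E2f2 (0.159), Rfc3 (0.0742), Pold1 (0.0577) and 1 of Rfc1 (0.0676), all lower in CC, were lost, and the split in WT turned to 10 higher and 1 lower. Samples with the same number deviated together within a genotype, so the comparison was also fitted with the replicate number as a block within genotype. That fit called 43 member peaks in WT, 16 higher and 27 lower (22.1% of all peaks were called), and 33 in HOMO, 13 higher and 20 lower (22.2%). The count in WT was 4 without WT CB 1, WT CC 1 or WT CC 2, 6 without WT CB 2, 8 without HOMO CC 2 and 9 without HOMO CB 2. The count in HOMO was 5 without HOMO CC 2.

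Pole, the catalytic subunit of polymerase epsilon, held the largest differences. A peak inside it (chr5:110300549-110301049) was at 3.85, 4.24 and 5.41 CPM in WT CB and 12.6, 14 and 12.3 CPM in WT CC. In HOMO it was at 4.19, 5.59 and 4.62 CPM in CB and 12, 11.6 and 13.9 CPM in CC. Every CC library was above every CB library. The log2 fold change of CC against CB was 1.5 (SE 0.18, adjusted p = 0.000136) in WT and 1.36 (SE 0.18, adjusted p = 0.000101) in HOMO. The adjoining peak (chr5:110300039-110300539) had log2 fold changes of 1.75 and 1.66 (SE 0.25 for both, adjusted p = 0.000511 and 0.000355). These calls held with each library left out. Between genotypes neither peak differed beyond the spread (log2 fold changes of -0.04 to 0.10).

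Licensing genes held 3 such peaks that were higher in CC. Inside Orc1, the subunit that binds nucleotide to hold the complex at origins, a peak (chr4:108586292-108586792) was at 1.44, 2.12 and 1.10 CPM in HOMO CB and 5.03, 4.77 and 4.33 CPM in HOMO CC. In WT it was at 1.66, 1.83 and 2.39 CPM in CB and 4.66, 3.49 and 3.35 CPM in CC. CC was above CB without overlap in both genotypes. For Orc1 the log2 fold change was 1.57 (SE 0.27, adjusted p = 0.0012) in HOMO, held with each library left out, and 0.92 (SE 0.27, adjusted p = 0.0517) in WT, where the fit with the replicate block gave adjusted p = 0.00447. The peak inside Orc5 (chr5:22519626-22520126) had log2 fold changes of 1.40 (SE 0.31, adjusted p = 0.0101) in WT and 0.99 (SE 0.28, adjusted p = 0.0348) in HOMO, from group means of 1.02 to 3.19 CPM. The WT call was lost without WT CB 1 (adjusted p = 0.0789), and the HOMO call without HOMO CC 2 (0.154), HOMO CB 2 (0.0927), HOMO CB 3 (0.0888), HOMO CB 1 (0.0848) or HOMO CC 1 (0.0646). The peak 1046 bp beyond Cdc6 and 2812 bp from Rara (chr11:98924738-98925238) had a log2 fold change of 1.06 in both genotypes, with adjusted p = 0.0435 in WT and 0.0317 in HOMO. Its calls were lost with 9 and 6 of the 12 libraries left out, up to adjusted p = 0.215 without WT CC 2 and 0.149 without HOMO CB 2.

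Rfc1 held peaks that moved in opposite directions. Near its start, the peak at chr5:65333684-65334184 was at 42.1, 41.9 and 45 CPM in WT CB and 23.9, 24.1 and 29.7 CPM in WT CC, and at 42.8, 46.4 and 49.8 CPM in HOMO CB and 19.4, 29.7 and 35.2 CPM in HOMO CC. CC was below CB without overlap in both genotypes. The log2 fold change was -0.73 (SE 0.15, adjusted p = 0.00653) in WT and -0.69 (SE 0.15, adjusted p = 0.00617) in HOMO, both held with each library left out. The peak at chr5:65330769-65331269 was lower in CC in WT (-0.54, SE 0.13, adjusted p = 0.0207), lost without WT CB 2 (0.0906), WT CC 1 (0.0767) or WT CC 2 (0.0588). The peak at chr5:65311146-65311646 was higher in CC in WT (0.76, SE 0.22, adjusted p = 0.0451), lost with any of 10 of the 12 libraries left out (highest adjusted p = 0.177, without WT CB 1). In HOMO these Rfc1 peaks did not pass (-0.42, adjusted p = 0.0548, and 0.42, adjusted p = 0.27), while the replicate block called both (0.00155 and 0.0426). At Rfc3, another clamp loader subunit, the peak at the far end of the gene (chr5:151642811-151643311, 8147 bp from the listed start) was lower in CC, at 31.7 to 33.4 CPM in WT CB against 23.3 to 25.7 CPM in WT CC. In HOMO it was at 32.1 to 40.3 CPM in CB against 24.4 to 25.3 CPM in CC. Its log2 fold changes were -0.42 (SE 0.11, adjusted p = 0.0251) in WT and -0.49 (SE 0.11, adjusted p = 0.00714) in HOMO. The WT call was lost without WT CC 2 (adjusted p = 0.112), WT CB 1 (0.0904), WT CC 1 (0.0765) or WT CB 2 (0.0674).

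**Figure D5:**
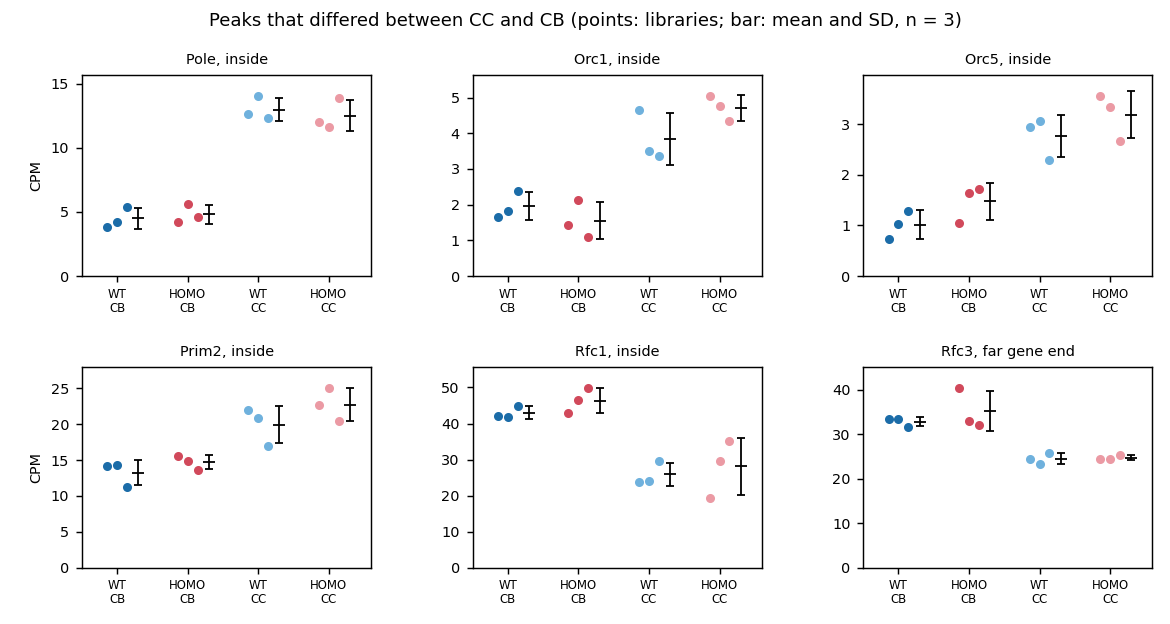
CPM in each library (points, 3 per group) with mean and SD for 6 member peaks that differed between CC and CB in at least 1 genotype. The peaks in Pole, Orc1, Orc5 and Prim2 are higher in CC and those of Rfc1 and Rfc3 lower, with no overlap of CC and CB libraries within a genotype.

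The other calls between populations were spread over the roles. Inside Prim2, the large primase subunit, a peak (chr1:33551244-33551744) was at 11.3 to 14.3 CPM in WT CB and 17 to 22.0 CPM in WT CC, with log2 fold changes of 0.59 (SE 0.14, adjusted p = 0.0189) in WT and 0.64 (SE 0.14, adjusted p = 0.00762) in HOMO. Its WT call was lost without WT CC 1 (adjusted p = 0.0913), WT CC 2 (0.0838), WT CB 3 (0.0785) or WT CB 1 (0.0552), and the HOMO call without HOMO CC 2 (0.0722) or HOMO CB 3 (0.0578). Inside Rrm1 a peak (chr7:102458519-102459019) was at 7.33 to 7.81 CPM in WT CB and 10.8 to 12.9 CPM in WT CC. Its log2 fold change was 0.63 in WT (SE 0.16, adjusted p = 0.0196), lost without WT CC 2 (0.0981), WT CB 1 (0.0747), WT CB 2 (0.0621) or WT CC 1 (0.0563), and 0.31 in HOMO (adjusted p = 0.268). Inside Pole2, an accessory subunit of polymerase epsilon, a peak of 2.57 CPM on average had a log2 fold change of 0.99 in WT (SE 0.29, adjusted p = 0.05, rounded). The Pole2 call was lost with any of 9 libraries left out, up to adjusted p = 0.226 without WT CB 1. An intergenic peak 7201 bp from E2f1 (chr2:154576843-154577343) fell in HOMO CC, at 4.06 to 4.82 CPM in CB and 1.63 to 2.43 CPM in CC. Its log2 fold change was -1.10 (SE 0.24, adjusted p = 0.00724) in HOMO, lost without HOMO CC 2 (0.0538), and -0.80 (adjusted p = 0.0555) in WT, where the replicate block gave 0.00314.

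Main gene-end peaks differed little between populations. In WT 40 of 41 were below 0 in CC against CB (97.6%), against 75.5% of all main peaks. In HOMO 25 of 41 were below 0 (61.0%), against 65.7% of all main peaks. Over all 69 gene-end members the median log2 fold change was -0.12 in WT, against -0.09 over all gene-end peaks. In HOMO that median was -0.04, against -0.05. With TMM factors over gene-end peaks alone the medians of gene-end members were -0.03 in WT and 0.01 in HOMO. A single main peak passed, that of Orc2 in WT (2.44% of main peaks, against 0.763% of all main peaks called lower), at 69.0, 75.7 and 62.9 CPM in CB and 55.7, 54.6 and 56.8 CPM in CC, without overlap. The Orc2 log2 fold change was -0.31 (SE 0.09, adjusted p = 0.0464). The call was lost with any of 9 libraries left out, up to adjusted p = 0.176 without WT CB 2. With the replicate block 9 of 41 main peaks were lower in WT CC (22.0%, against 16.6% of all main peaks). They were those of Orc2 (-0.30), E2f2 (-0.25), Mcm6 (-0.23), Rfc4 (-0.23), Pold1 (-0.21), Mcm3 (-0.20), Pold3 (-0.20), Chaf1b (-0.20) and Uhrf1 (-0.19). In HOMO that fit called 1, Orc5 (-0.25), against 7.56% of all main peaks.

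The most open peaks away from gene ends were at Pold1 and E2f2. The first, inside Pold1 and 2250 bp from Spib, which encodes a B cell Ets factor (chr7:44534087-44534587), was at 102, 106 and 124 CPM in WT CB and 76.4, 80.8 and 95.8 CPM in WT CC. In HOMO it was at 97.6 to 118 CPM in CB and 84.6 to 106 CPM in CC. CC was below CB without overlap in WT only. The log2 fold change of CC against CB was -0.39 in WT (SE 0.11, adjusted p = 0.0406) and -0.18 in HOMO (SE 0.11, adjusted p = 0.403), and the difference between these was not called. The WT call was lost with any of 7 libraries left out, up to adjusted p = 0.179 without WT CC 1, while the replicate block within genotype gave adjusted p = 5.99e-07 in WT and 0.0193 in HOMO, a call in both. The next Pold1 peak averaged 44.2 CPM with a log2 fold change of -0.41 in WT (adjusted p = 0.0579, and 9.51e-06 with that block).

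Within E2f2, 3 neighbouring peaks averaged 72.1, 41 and 37.7 CPM, all above its main gene-end peak at 31.9 CPM. The first lies 16 bp from a second listed start of the gene. At the fourth, the peak that was higher in HOMO CC, CC was lower than CB in WT, at 27.6 to 32.0 CPM in CB against 20.9 to 24.5 CPM in CC. Its log2 fold change was -0.38 (SE 0.11, adjusted p = 0.0394) in WT and -0.22 (SE 0.11, adjusted p = 0.24) in HOMO, where that block gave adjusted p = 0.0364. The WT call was lost with any of 7 libraries left out, up to adjusted p = 0.161 without WT CB 1. Over all 11 peaks of E2f1 and E2f2 that are not gene ends, 10 were above 0 for HOMO over WT in CB and 10 in CC. Their median log2 fold changes were 0.18 and 0.17. Most came from 1 gene, with 6 inside E2f2 and 3 between genes near it. The lean was not particular to this role. Licensing genes had 12 of 14 such peaks above 0 in CB and 13 in CC, and clamp and clamp loader genes 11 and 13 of 15. Helicase activators had 3 and 6 of 8. Over all genes 30017 of 52588 such peaks were above 0 in CB and 30744 in CC.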

How the data were processed

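Omni-ATAC-seq, which tags open chromatin with a transposase, was read from 12 libraries. The authors deposited 1 table of raw read counts per peak on mm10. The submitters' processing notes name FastQC, BWA, deepTools and R 4.2.1 without roles. Not given in the sources used here are the peak caller, how reads were counted, how duplicates were treated and whether libraries were pooled to call peaks. Members and gene lists were chosen with earlier results of these data known.

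Peaks were assigned to 21896 protein-coding RefSeq spans (GRCm38.p6), which placed 64043 peaks (93.2%). Counts were scaled with TMM factors and fitted over all 12 libraries with edgeR 4.0.16 (R 4.3.3), using 1 mean per group and its robust quasi-likelihood test. Calls are at a Benjamini-Hochberg adjusted p under 0.05 over all 68689 peaks. The 5 contrasts were the effect of genotype within each population, that of population within each genotype, and the interaction of these. The fit was tested on simulated data, where 70% of peaks changed 2-fold were recovered in CB and 58% in CC, among 68689 peaks. The values of 1 list of cell type markers are not reported here. The SE of each log2 fold change comes from the main fit, whose spread was estimated over all 12 libraries together, with 3 libraries a group.

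Named peaks were the main gene-end peaks of Mcm2 to Mcm7, Pcna and E2f1, every member peak called in a contrast, the main peaks with the extremes of level and genotype effect in each role, and the 5 most open peaks away from gene ends. Within a genotype, libraries with the same number had deviations correlated at 0.21 to 0.52 (6 pairs), against -0.34 to 0.12 for other pairs. The numbers were therefore taken as pairing CB with CC there. Alternatives were DESeq2 1.42.0, limma 3.58.1 (voom, and loess scaling), other scaling factors, a filter on low counts, the library total as a covariate, replicate blocks, fits of 2 groups only, narrower windows for assignment and gene ends, and leaving out each library. Chosen after seeing the data were the split by side of the start, the start peaks of neighbouring genes, and leaving out both HOMO libraries numbered 1 or both WT libraries numbered 2.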

Additional observations from a re-analysis of the deposited data

How the results depend on the processing

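Called member peaks numbered 7 for HOMO over WT in CB. They were 24 with the library total as covariate, 14 with limma voom, 23 with the replicate block across genotypes, and 2 to 9 with 1 library left out. In CC there were 6. They were 0 in a fit of 2 groups only, 3 with TMM over gene-end peaks (all higher), 2 with loess scaling, 10 with the replicate block, 1 without both WT libraries numbered 2 (an alternative added after seeing the data), and 0 to 6 with 1 library left out. For CC over CB in WT there were 14. They were 6 with 2 groups only, 26 with the covariate, 8 with loess scaling, 31 with the replicate block, 43 with the block within genotype, 2 without both WT libraries numbered 2, and 4 to 18 with 1 library left out. In HOMO there were 9. They were 16 with the covariate, 17 with the replicate block, 33 with the block within genotype, and 5 to 10 with 1 library left out. The difference of genotype effects gave 0 in every fit run, which left out the fit of 2 groups only. Across genotypes, libraries of the same number had deviations correlated at -0.01 to 0.40 (12 pairs), so that pairing was not used in the report. With TMM over gene-end peaks the split in CB was 5 higher and 3 lower, and in WT 10 higher and 1 lower. With that scaling the median of gene-end members turned from -0.08 to 0.04 in CB, from -0.01 to 0.08 in CC and from -0.04 to 0.01 for CC over CB in HOMO, and that of the other members turned from -0.03 to 0.06 in WT and from -0.04 to 0.01 in HOMO. No called peak changed sign under an alternative run. Of 36 calls, 10 held with each of the 12 libraries left out. The cause of these changes was not tested. Small changes were recovered less often: of simulated 1.5-fold changes, 20% were recovered in CB and 14% in CC.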

Other observations

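A wider list of 57 replication-linked genes (checkpoint, cyclin and further E2F genes among them) was read beside the members. It had 233 peaks at 54 genes. For HOMO over WT 3 rose and 5 fell in CB, and 1 rose and 3 fell in CC, by edgeR's quasi-likelihood test with Benjamini-Hochberg adjustment, with medians of 0.01 and 0.03. These are 3.43% of the list's peaks against 4.63% of all peaks in CB, and 1.72% against 2.75% in CC. The genes named here were chosen after their values were seen. Gene-end peaks that fell in CB were those of Rnaseh2a, an RNase H2 subunit (log2 fold change -0.57, adjusted p = 0.0089), Recql4, a helicase (-0.45, adjusted p = 0.014), Cdk2, the S phase kinase (-0.44, adjusted p = 0.0268), and Ccne2, a cyclin partner of Cdk2 (-0.51, adjusted p = 0.0446). The Cdk2 peak was also lower in CC (-0.45, adjusted p = 0.0341).

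For CC over CB, 6 of these peaks rose and 10 fell in WT, and 6 rose and 8 fell in HOMO, with medians of -0.07 and -0.04. These are 6.87% against 5.43% of all peaks in WT, and 6.01% against 7.22% in HOMO. Inside Dna2, a nuclease and helicase that processes Okazaki fragments, 4 peaks fell in WT and 2 in HOMO, and the one with the smallest adjusted p had log2 fold changes of -0.94 in WT (adjusted p = 0.000315) and -0.90 in HOMO (adjusted p = 0.000217). A peak between genes, nearest to Pola1, the catalytic subunit of polymerase alpha, had -1.52 (adjusted p = 0.000356) and -0.98 (adjusted p = 0.0044). A peak between genes, nearest to Mcm9, a helicase of DNA repair, was higher in CC at 1.40 (adjusted p = 0.00252) and 1.60 (adjusted p = 0.000377).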
